A study of Mus musculus with 6 samples.

Results

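The Notch pathway genes examined here were 10 genes chosen by name: the receptors Notch1, Notch2 and Notch3, the ligands Jag1, Jag2 and Dll1, the DNA-binding factor Rbpj, the coactivator Maml2 and the target genes Hes1 and Hey1. The gene table of 14665 protein-coding genes had a row for 9 of them, and Hey1 was not analysed here. All 9 passed the filter on low counts, as did 11104 genes in all. Expression was measured by RNA sequencing after depletion of ribosomal RNA in C17.2 cells, an immortalized neural stem cell (NSC) line of the mouse. The H/R group (3 libraries) was exposed to 5% oxygen for 12 h, followed by reoxygenation for 48 h, and the control group (3 libraries) was kept under normal culture conditions. Both groups come from a single cell line, and no source says whether the libraries of a group are separate cultures, and the p-values then reflect only how much these libraries vary, which may be technical.

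Notch signaling passes between neighbouring cells. A Delta-like or Jagged ligand on one cell binds a Notch receptor on the next, the receptor is cut first by an ADAM protease and then by gamma-secretase, and the freed intracellular domain joins RBPJ and a Mastermind-like (MAML) protein on DNA to switch on genes such as those of the Hes and Hey repressors. In neural stem cells the pathway is known for holding back neuronal differentiation and for maintaining the progenitor pool.

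Gene counts per library were 15639751 to 16830389 in the H/R group and 7267809 to 8371882 in the control group, so depth separated the groups completely. Levels are given as CPM, the count of a gene relative to the total of its library after scaling with TMM factors (1.07 to 1.08 in H/R and 0.920 to 0.938 in control), and as the mean ± SD over 3 libraries. Changes are the log2 fold change of H/R over control ± its standard error (SE), with two-sided p-values from edgeR's quasi-likelihood test adjusted by the Benjamini-Hochberg method over all genes tested, and an adjusted p under 0.05 was called. Across all genes 37.8% were called, 18.8% higher and 19.0% lower in H/R (2087 and 2109 genes), and without scaling factors the calls were 3704 higher and 1272 lower, with the median change of all genes at 0.22 in place of 0.010. Changes below are therefore relative to a median near 0 under TMM scaling. The stem cell markers Nes (331 ± 19.2 CPM in H/R and 196 ± 16.3 CPM in control), Vim and Sox2 were expressed. A further stem cell marker, Msi1, had 6.77 CPM in H/R and 9.65 CPM in control and was not called. The astrocyte marker Gfap and the neuronal marker Tubb3 averaged below 1 CPM in both groups. Of the 8 stem cell markers listed, 4 had no row and were not analysed here. The summed CPM of the 4 neuronal markers was 33.7 to 37.9 in H/R and 73.2 to 81.1 in control, nearly all of it Map2, and that of the 6 mesenchymal markers was 4475 to 5732 in H/R and 4906 to 6843 in control, mostly the collagen gene Col1a1, which was not called. Of the 5 mesenchymal markers tested, 2 were lower in H/R, both of them also markers of mural cells: Acta2, the smooth muscle actin (114 ± 14.3 CPM in H/R and 248 ± 31.8 CPM in control, log2 -1.12, edgeR adjusted p = 1.08e-05), and Pdgfrb, a receptor of pericytes (196 ± 24.5 CPM in H/R and 251 ± 39.0 CPM in control, log2 -0.36, edgeR adjusted p = 0.0358). The part of these markers in the results below was not tested. In bulk RNA, fewer cells that express a gene and less of its RNA per cell cannot be told apart.

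Of the 9 members, Notch1 and Notch3 were higher and Jag1 and Rbpj lower in H/R, and the other 5 did not pass the test. The 4 calls among 9 members stand beside 37.8% of all genes, a share near that background. The median log2 change of the members was -0.26, against 0.010 for all genes tested. In 6 members the H/R libraries lay wholly above (Notch1, Notch3, Hes1) or wholly below (Notch2, Jag1, Rbpj) the control libraries, and 49.7% of all genes separated in this way. At the study's thresholds, an unadjusted p under 0.05 and a change of at least 2-fold, no member was called (11.2% of all genes were).

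**Figure D1:**
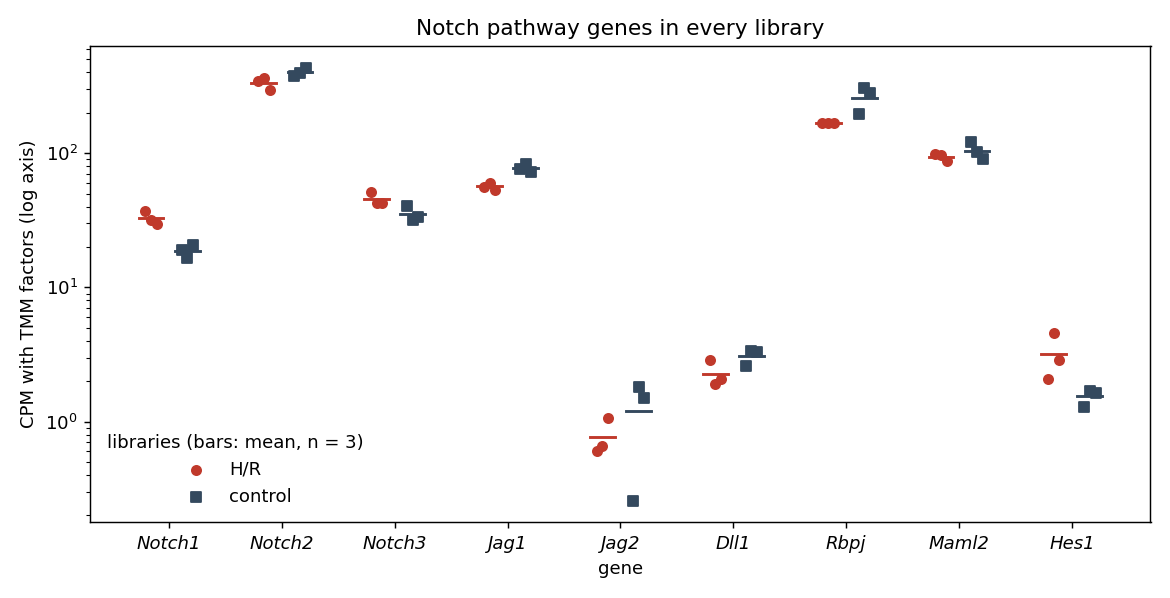
Level of each of the 9 genes in every library, in CPM with TMM factors on a log axis. Circles are the 3 H/R libraries, squares the 3 control libraries and short bars the group means. The groups separate for Notch1, Notch2, Notch3, Jag1, Rbpj and Hes1 and overlap for Jag2, Dll1 and Maml2, and Notch2 has the highest level of all (336 CPM in H/R and 403 CPM in control).

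Of the 3 receptors, Notch1 and Notch3 were higher in H/R and Notch2 did not pass the test. Notch1 (ENSMUSG00000026923, mm10 chr2:26457903-26516663, minus strand), a receptor with broad expression in neural progenitors, had 37.2, 31.7 and 29.7 CPM in H/R libraries 1, 2 and 3 (676, 534 and 504 counts), against 18.9, 16.6 and 20.8 CPM in control libraries 1, 2 and 3 (147, 128 and 139 counts). Every H/R library was above every control library. The means were 32.9 ± 3.88 CPM in H/R and 18.8 ± 2.09 CPM in control, a 1.75-fold higher level in H/R (log2 0.81, SE 0.16, edgeR adjusted p = 0.00153). At an adjusted p under 0.05, Notch1 was called under all 14 alternative settings of the fit, with a log2 change between 0.71 and 1.02.

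Notch3 (ENSMUSG00000038146, mm10 chr17:32120820-32166852, minus strand), a receptor best known from vascular smooth muscle and pericytes and itself a target of Notch signaling, had 51.7, 42.9 and 42.5 CPM in H/R, against 40.1, 31.7 and 33.5 CPM in control (45.7 ± 5.23 CPM in H/R and 35.1 ± 4.41 CPM in control). The H/R libraries were all above the control libraries, but the lowest of them, at 42.5 CPM, lay only a little over the highest control library. The mural cell markers Acta2 and Pdgfrb were lower in H/R, and their part in the level of Notch3 was not tested. The Notch3 change was small and just past the threshold (log2 0.38, SE 0.14, edgeR adjusted p = 0.0485). The call was lost with RLE size factors and with DESeq2 (adjusted p = 0.0560 in both). It was also lost when any library other than control 1 was left out: adjusted p was 0.178 without control 2, 0.102 without control 3, and 0.220, 0.0791 and 0.0644 without H/R 1, 2 and 3.

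Notch2 (ENSMUSG00000027878, mm10 chr3:98013527-98150361, plus strand), the receptor with the most counts here, had 348, 365 and 295 CPM in H/R (6330, 6150 and 5008 counts), against 375, 399 and 435 CPM in control (2906, 3070 and 2904 counts), with all H/R libraries below the control libraries. The averages of 336 ± 36.9 CPM in H/R and 403 ± 30.2 CPM in control gave a log2 change of -0.26 (SE 0.10), which narrowly missed the threshold (edgeR adjusted p = 0.0516). It passed, as lower, with RLE size factors (adjusted p = 0.0408), with DESeq2 (0.0289), with no filter (0.0456), with a filter of 1 CPM (0.0497) and without control 1 (0.0113), while without scaling factors the change was -0.046 (adjusted p = 0.733).

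Because the receptors were counted in the same libraries, their shares of the summed receptor counts do not depend on scaling between libraries. Notch1 made up 8.51%, 7.21% and 8.08% of the receptor counts in H/R, against 4.37%, 3.72% and 4.25% in control. Notch3 made up 11.8%, 9.75% and 11.6% in H/R, against 9.24%, 7.09% and 6.86% in control. Notch2 held the rest, 79.7%, 83.0% and 80.3% in H/R, against 86.4%, 89.2% and 88.9% in control. The shares of the groups did not overlap for any receptor, and Notch2 held most of the counts in every library. The share of Notch2 had to separate, because Notch1 and Notch3 lay above and Notch2 below control in every H/R library. The 3 shares make up a whole, so they are not separate results. They add no evidence to the tests of Notch2 and Notch3 above, and no background of other gene sets was computed. On average the share of Notch1 was 3.82 points higher in H/R, that of Notch3 3.33 points higher and that of Notch2 7.15 points lower, and leaving out any 1 library gave 3.53 to 4.18, 2.89 to 4.08 and -8.16 to -6.47 points. An exact permutation test of 3 against 3 libraries cannot go below p = 0.1. The share of a receptor also depends on its length, so it compares groups, not receptors.

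**Figure D2:**
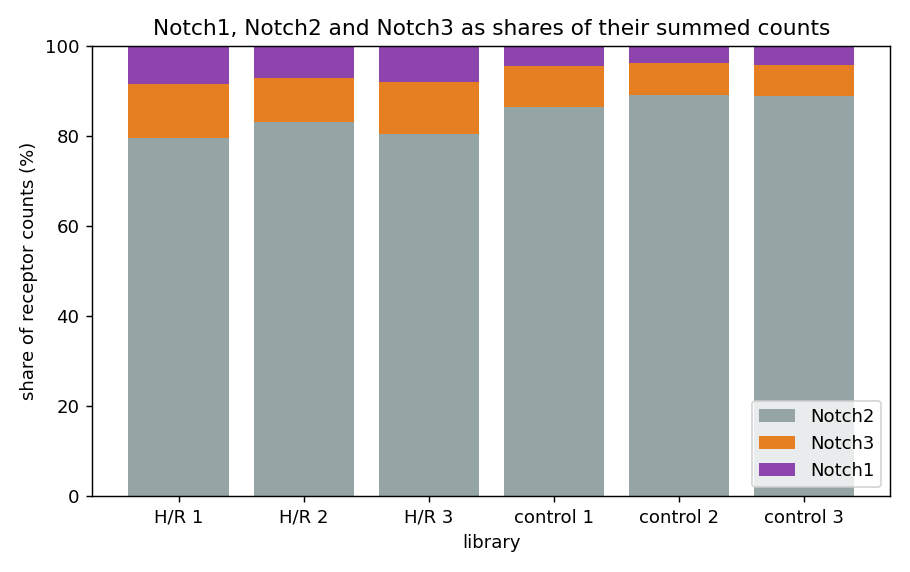
Notch1, Notch2 and Notch3 as percentages of their summed counts in each library, with the 3 H/R libraries at the left and the 3 control libraries at the right. Notch1 takes 7.21% to 8.51% in H/R and 3.72% to 4.37% in control, and Notch2 takes 79.7% to 83.0% in H/R and 86.4% to 89.2% in control.

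The promoter sequences of the 3 receptors are shown because the results compare these receptors with one another. They are from RefSeq (GRCm38.p6), run from 250 bases before to 50 bases after the annotated start on the strand of the gene, and have the GC box GGGCGG, on either strand, in capitals.
Notch1 chr2:26503773-26504072 (minus): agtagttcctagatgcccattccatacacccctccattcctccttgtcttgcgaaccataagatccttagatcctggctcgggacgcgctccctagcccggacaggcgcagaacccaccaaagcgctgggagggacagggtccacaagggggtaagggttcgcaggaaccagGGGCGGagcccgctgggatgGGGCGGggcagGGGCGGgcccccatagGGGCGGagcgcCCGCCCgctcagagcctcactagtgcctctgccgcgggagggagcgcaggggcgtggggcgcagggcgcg
Notch3 chr17:32166841-32167140 (minus): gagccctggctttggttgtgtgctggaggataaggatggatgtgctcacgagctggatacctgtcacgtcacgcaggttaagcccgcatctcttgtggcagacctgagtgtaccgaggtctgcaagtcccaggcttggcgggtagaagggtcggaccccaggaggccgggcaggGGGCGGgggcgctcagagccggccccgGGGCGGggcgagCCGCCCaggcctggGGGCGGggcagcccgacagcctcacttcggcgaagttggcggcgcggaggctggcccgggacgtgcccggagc
Notch2 chr3:98013288-98013587 (plus): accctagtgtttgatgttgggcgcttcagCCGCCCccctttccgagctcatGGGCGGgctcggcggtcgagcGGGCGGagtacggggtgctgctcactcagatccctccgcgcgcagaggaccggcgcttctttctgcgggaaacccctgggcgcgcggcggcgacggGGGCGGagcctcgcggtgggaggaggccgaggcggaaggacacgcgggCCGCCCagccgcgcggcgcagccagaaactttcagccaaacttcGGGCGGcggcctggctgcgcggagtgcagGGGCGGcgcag
A GC box, a motif read by SP-family factors, occurred 5 times in the Notch1 window, 4 times in that of Notch3 and 7 times in that of Notch2, and 35.7% of 32851 promoters of this length held at least 1. Notch1 and Notch3, which were called higher, and Notch2, which was not called, thus all held it. Promoters were found for 8 of the 10 members (11 promoters in all), and 5 members held GGGCGG, each in 1 promoter. Counted by promoter, as the background is, this makes 5 of 11. These are matches of letters only.

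Among the ligands, Jag1 was lower in H/R and Jag2 and Dll1 had few counts. Jag1 (ENSMUSG00000027276, mm10 chr2:137081456-137116644, minus strand), a transmembrane ligand of the Jagged type, had 55.9, 60.3 and 53.3 CPM in H/R (1016, 1015 and 906 counts), against 76.7, 83.3 and 72.6 CPM in control (595, 641 and 485 counts). All H/R libraries were below all control libraries. The averages were 56.5 ± 3.54 CPM in H/R and 77.5 ± 5.38 CPM in control, and the log2 change was -0.46 (SE 0.11, edgeR adjusted p = 0.00486). At an adjusted p under 0.05, 1 of the 14 alternative settings of the fit ended the call, the one without scaling factors (log2 -0.24, adjusted p = 0.0902).

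Jag2 (ENSMUSG00000002799, mm10 chr12:112907819-112929776, minus strand), the second Jagged ligand, had 0.605, 0.654 and 1.06 CPM in H/R (11, 11 and 18 counts), against 0.258, 1.82 and 1.497 CPM in control (2, 14 and 10 counts). Dll1 (ENSMUSG00000014773, mm10 chr17:15367354-15376872, minus strand), a Delta-like ligand expressed by differentiating neural progenitors, had 2.86, 1.901 and 2.06 CPM in H/R (52, 32 and 35 counts), against 2.58, 3.38 and 3.29 CPM in control (20, 26 and 22 counts). The groups overlapped for both genes. With SEs of 0.75 for Jag2 (log2 -0.61, edgeR adjusted p = 0.555) and 0.45 for Dll1 (log2 -0.43, edgeR adjusted p = 0.477), a change of the size seen for Jag1 was not detectable at this depth.

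Of the factors that turn the receptor signal into transcription, Rbpj was lower in H/R and Maml2 did not pass the test. Rbpj (ENSMUSG00000039191, mm10 chr5:53466152-53657362, plus strand), the DNA-binding partner of all Notch receptors and a repressor in their absence, had 167, 169 and 168 CPM in H/R (3040, 2850 and 2858 counts), against 195, 304 and 281 CPM in control (1512, 2343 and 1875 counts). The H/R libraries were nearly equal (168 ± 1.08 CPM) and below the control libraries, which were spread widely (260 ± 57.6 CPM) with control 1 below the other two. The log2 change was -0.63 (SE 0.13, edgeR adjusted p = 0.00252), a level 1.54-fold lower in H/R. At an adjusted p under 0.05, Rbpj was called under all 14 alternative settings of the fit, with a log2 change of -0.41 (adjusted p = 0.0241) without scaling factors and -0.80 without control 1. GENCODE annotates the processed pseudogenes Rbpj-ps1 on chromosome 4 and Rbpj-ps3 on chromosome 6, which can share reads with Rbpj, so its counts are uncertain to that extent.

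Maml2 (ENSMUSG00000031925, mm10 chr9:13297957-13709388, plus strand), a Mastermind-like coactivator that bridges the receptor domain and RBPJ to the transcription machinery, had 98.0, 96.7 and 88.0 CPM in H/R (1782, 1628 and 1495 counts), against 122, 102 and 90.0 CPM in control (948, 784 and 601 counts). The groups overlapped through control 3. The log2 change was -0.15 (SE 0.12, edgeR adjusted p = 0.335), and 0.061 without scaling factors.

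Hes1 (ENSMUSG00000022528, mm10 chr16:30064384-30067796, plus strand), a basic helix-loop-helix repressor and the best known target of Notch in neural progenitors, was expressed at a low level. It had 2.09, 4.58 and 2.88 CPM in H/R (38, 77 and 49 counts), against 1.29, 1.69 and 1.65 CPM in control (10, 13 and 11 counts). Each H/R library was above each control library, with H/R 2 the highest by far. The means of 3.18 ± 1.27 CPM in H/R and 1.54 ± 0.220 CPM in control gave a log2 change of 1.04 with a wide error (SE 0.50), which did not pass (unadjusted p = 0.0582, edgeR adjusted p = 0.121). It passed in none of the 14 alternatives (adjusted p 0.0568 to 0.449), and without H/R 2 the log2 change was 0.69. Against Rbpj in the same library, Hes1 had 1.25, 2.70 and 1.71 counts per 100 Rbpj counts in H/R, against 0.661, 0.555 and 0.587 in control. This ratio had to separate the groups, because Hes1 lay above and Rbpj below control in every H/R library. It is thus no further evidence for a change of Hes1.

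**Figure D3:**
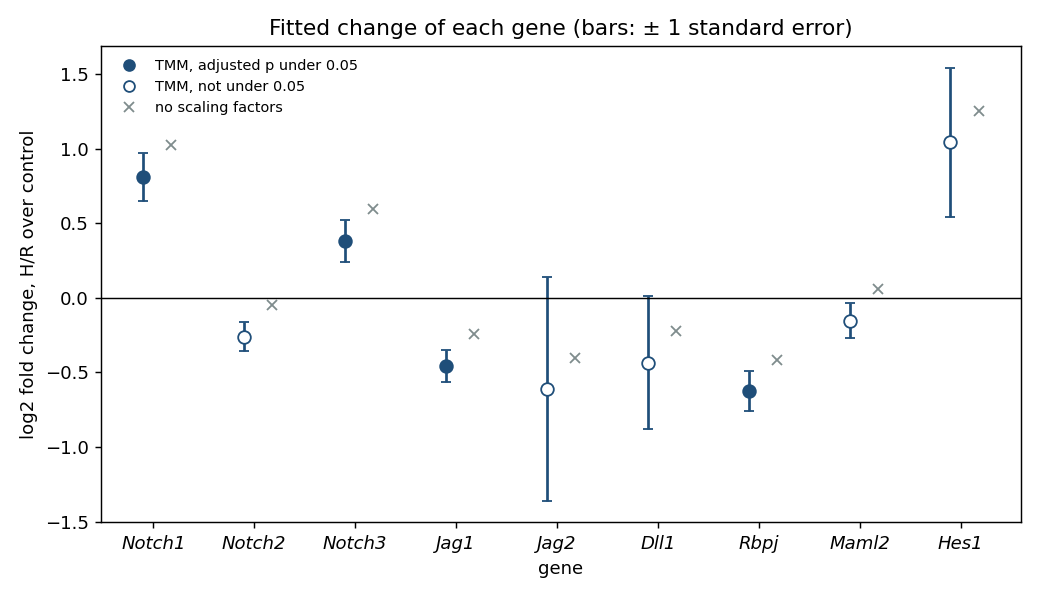
Log2 fold change of H/R over control for the 9 genes. Circles are the fit with TMM scaling, filled where the adjusted p is under 0.05, with bars of 1 SE, and crosses the fit without scaling factors. Without scaling factors each value lies higher, Maml2 changes sign (0.061) and Notch2 comes to -0.046.

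One Rbpj promoter is shown because it holds the core of the sequence that RBPJ itself binds (TGGGAA, either strand, in capitals), 2 times, and Rbpj was the member that fell the most among those called. It is from RefSeq (GRCm38.p6), 250 bases before to 50 after the start.
Rbpj chr5:53590096-53590395 (plus): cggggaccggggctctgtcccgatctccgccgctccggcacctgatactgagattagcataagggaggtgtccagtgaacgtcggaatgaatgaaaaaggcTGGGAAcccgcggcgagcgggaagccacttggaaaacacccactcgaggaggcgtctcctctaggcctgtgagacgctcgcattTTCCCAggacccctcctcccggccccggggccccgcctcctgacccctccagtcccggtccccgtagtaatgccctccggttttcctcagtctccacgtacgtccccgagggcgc
The core occurred in 3 of the 11 member promoters (of Rbpj and Maml2), and in 25.6% of all promoters of this length. The Rbpj promoters overlap and share a site, so it was counted in both. By member, 2 of the 8 with a promoter held the core.

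Per kilobase of exon (the union of all annotated exons), which allows a rough comparison of different genes, Notch2 was the highest member, with 31.2 CPM per kb in H/R and 37.3 CPM per kb in control. Maml2 (14.3 in H/R and 15.9 in control), Rbpj (13.2 in H/R and 20.4 in control) and Jag1 (9.70 in H/R and 13.3 in control) came next. Within the control libraries Maml2 overlapped both Rbpj and Jag1. Notch3 (5.65 in H/R and 4.34 in control), Notch1 (2.31 in H/R and 1.32 in control) and Hes1 (1.56 in H/R and 0.757 in control) were lower, and Dll1 (0.539 in H/R and 0.731 in control) and Jag2 (0.111 in H/R and 0.171 in control) were the lowest, all in CPM per kb. Hes1 and Dll1 overlapped in control but not in H/R, and Hes1 and Notch1 overlapped in H/R but not in control. The authors' annotation release is not stated, so the lengths may differ from those used in counting. The union also takes in the exons of all isoforms (14232 bases for Notch1, 12750 for Rbpj and 6598 for Maml2). It can exceed the length of the expressed mRNA, so the order of the genes is approximate.

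To place the members within the pathway, 9 lists of Notch genes were examined. Without the members they named 81 genes, of which 74 had a row and 65 were tested. In H/R 19 of the 65 were higher, 9 were lower and 37 did not pass, with a median log2 change of 0.085 against 0.010 for all genes, and beside backgrounds of 18.8% higher and 19.0% lower. Without scaling factors the counts were 30 higher and 3 lower.

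Of the 10 genes for receptor cleavage, 4 were higher, 1 was lower and 5 did not pass, with a median log2 change of 0.32. Adam10, the protease that makes the first cut after ligand binding, had 341 ± 30.4 CPM in H/R and 217 ± 7.96 CPM in control (log2 0.65, SE 0.090, edgeR adjusted p = 9.83e-05). Furin, which cleaves the receptor precursor in the Golgi, averaged 125 ± 19.7 CPM in H/R and 72.3 ± 9.27 CPM in control (log2 0.79, edgeR adjusted p = 0.000466). The gamma-secretase subunits moved in both directions. Its catalytic subunit Psen2 was higher at 11.7 ± 1.59 CPM in H/R, against 5.86 ± 2.08 CPM in control (log2 1.01, edgeR adjusted p = 0.0159, and 0.0768 without H/R 2). Its subunit Ncstn was lower at 105 ± 15.5 CPM in H/R, against 137 ± 4.30 CPM in control (log2 -0.38, edgeR adjusted p = 0.0185), a call lost without scaling factors (adjusted p = 0.263), without H/R 1 (0.0596) and without H/R 3 (0.0784).

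Of the 5 tested genes for receptor glycosylation, 3 were higher and none was lower. Lfng, the Fringe enzyme that extends sugars on the receptor and shifts its response between ligands, had 8.08, 12.2 and 8.83 CPM in H/R, against 3.74, 4.29 and 3.44 CPM in control. The groups were well apart (log2 1.34, SE 0.29, edgeR adjusted p = 0.00293). Pofut1, which adds O-fucose to the receptor (73.6 ± 5.71 CPM in H/R and 57.9 ± 6.24 CPM in control, log2 0.35, edgeR adjusted p = 0.0331), and Eogt, which adds O-GlcNAc (19.3 ± 0.608 CPM in H/R and 13.7 ± 0.611 CPM in control, log2 0.49, edgeR adjusted p = 0.0381), were higher by less. Pofut1 lost its call without control 1 or 3 or H/R 1 or 2 (adjusted p 0.0513 to 0.134), and Eogt without any 1 library (0.0590 to 0.101) and with no filter (0.0577).

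Of the genes that act on ligand uptake and on receptor turnover, most did not pass. Neurl1b, an E3 ligase that promotes ligand endocytosis, was the only one of the 6 genes for ligand ubiquitination and endocytosis to pass. It had 31, 34 and 29 counts in H/R, against 0, 0 and 1 in control (edgeR adjusted p = 0.00188), too few in control for a useful fold change. The filter on low counts was met only through its H/R libraries, so this call is given as a description. Of the 9 tested genes of receptor turnover and inhibitors, 2 were higher, 2 were lower and 5 did not pass. Dtx4, a Deltex E3 ligase, had 175 ± 18.01 CPM in H/R and 105 ± 9.97 CPM in control (log2 0.74, edgeR adjusted p = 0.000163), whereas its relative Dtx3 had 39.7 ± 5.18 CPM in H/R and 52.5 ± 3.37 CPM in control (log2 -0.40, edgeR adjusted p = 0.0277, lost without scaling factors at 0.269 and without control 1, H/R 2 or H/R 3 at 0.0603, 0.0880 and 0.104). Fbxw7, which targets the Notch intracellular domain for degradation, was higher (67.7 ± 1.87 CPM in H/R and 50.7 ± 5.85 CPM in control, log2 0.42, edgeR adjusted p = 0.0128). Nedd4, another E3 ligase, was lower by little (1311 ± 29.2 CPM in H/R and 1511 ± 62.0 CPM in control, log2 -0.20, edgeR adjusted p = 0.0450), and its change was 0.0098 without scaling factors. This call was also lost with edgeR's exact test (adjusted p = 0.107), with no filter (0.0839) and when any library other than control 3 was left out (0.05003 to 0.177).

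Among the 13 coactivators, Rbpj and Maml2 included, 4 were higher, 3 were lower and 6 did not pass. Maml3, a paralog of Maml2 with the same role, had 27.1, 28.5 and 26.7 CPM in H/R, against 9.80, 10.3 and 11.4 CPM in control (log2 1.39, SE 0.17, edgeR adjusted p = 3.15e-05). Maml3 was thus called higher while Maml2 was not called, and the difference between the paralogs was not tested. The histone acetyltransferases Ep300 (370 ± 10.8 CPM in H/R and 273 ± 13.2 CPM in control, log2 0.44, edgeR adjusted p = 0.000870) and Kat2b (308 ± 21.4 CPM in H/R and 226 ± 13.5 CPM in control, log2 0.45, edgeR adjusted p = 0.00150), which MAML proteins recruit, were higher. The Mediator kinase module genes Med12 (16.8 ± 2.18 CPM in H/R and 32.3 ± 4.26 CPM in control, log2 -0.95, edgeR adjusted p = 0.000707) and Med13 (613 ± 17.6 CPM in H/R and 733 ± 24.4 CPM in control, log2 -0.26, edgeR adjusted p = 0.0160) were lower. For Med13 the call was lost without scaling factors (adjusted p = 0.666), without H/R 1 (0.0601) and without H/R 2 (0.0982).

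Of the 17 tested corepressors, 4 were higher, 2 were lower and 11 did not pass, with a median log2 change of -0.038. L3mbtl3, an RBPJ partner that brings a histone demethylase to target genes, had 124, 110 and 108 CPM in H/R, against 60.1, 56.1 and 58.1 CPM in control (log2 0.97, SE 0.10, edgeR adjusted p = 1.17e-05). Tle4, a Groucho-type corepressor, was higher at 36.4 ± 3.51 CPM in H/R, against 24.9 ± 2.44 CPM in control (log2 0.55, edgeR adjusted p = 0.0103, and 0.0617 without H/R 2). The histone demethylase Kdm5a (218 ± 0.481 CPM in H/R and 280 ± 3.93 CPM in control, log2 -0.36, edgeR adjusted p = 0.00277, lost without scaling factors at 0.143) and Ctbp2 (65.1 ± 4.69 CPM in H/R and 82.7 ± 13.3 CPM in control, log2 -0.35, edgeR adjusted p = 0.0471) were lower. Ctbp2 lost its call without scaling factors (0.430), with thinned H/R libraries (0.0546) and when any library other than control 3 was left out (0.0667 to 0.154).

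The 8 tested target genes, Hes1 and Notch3 among them, were split: 2 were higher, 2 were lower and 4 did not pass. Ccnd1, the cyclin that drives entry into S phase, had 312, 321 and 341 CPM in H/R, against 150, 175 and 182 CPM in control (log2 0.94, SE 0.095, edgeR adjusted p = 7.85e-06). Myc, a transcription factor of growth, had 15.5, 14.9 and 14.3 CPM in H/R, against 35.2, 40.5 and 44.5 CPM in control (log2 -1.43, SE 0.15, edgeR adjusted p = 1.20e-05). Both genes also answer to many other signals. Sox9, a transcription factor of glial and progenitor fate, had 1.76, 1.49 and 2.12 CPM in H/R, against 1.29, 8.57 and 14.97 CPM in control. Its groups overlapped, and its call (log2 -2.19, edgeR adjusted p = 0.0142) was lost without control 3 (log2 -1.46, adjusted p = 0.0913).

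**Figure D4:**
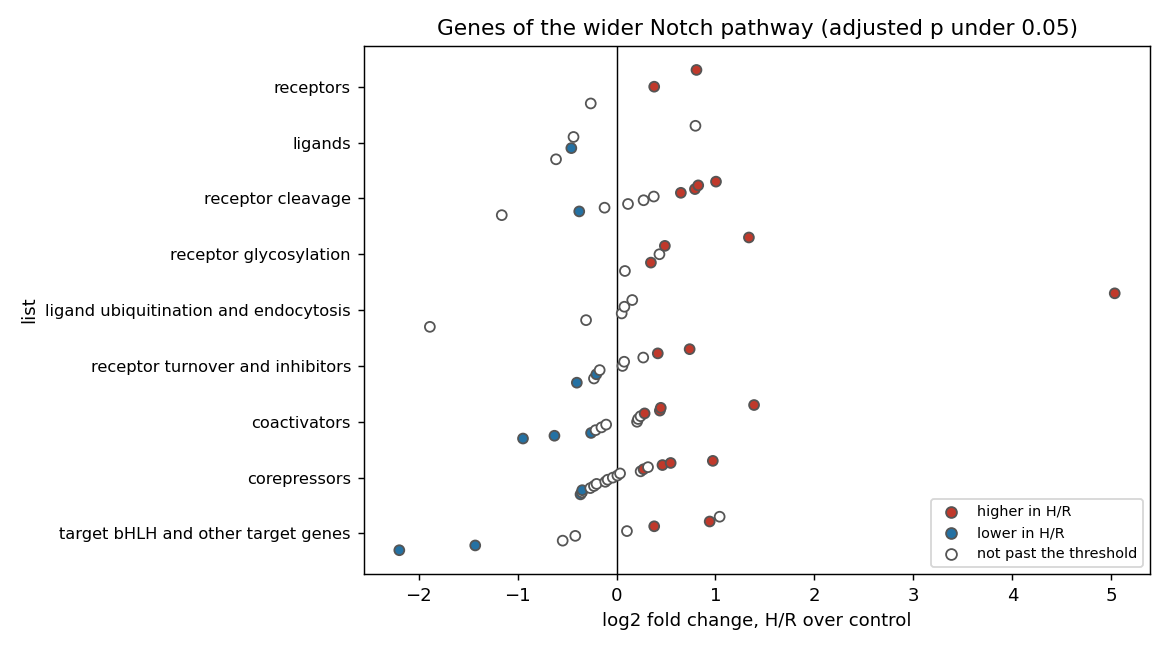
Log2 fold change of H/R over control for each tested gene of the 9 lists, the 9 members included, with filled points for genes whose adjusted p is under 0.05. Higher and lower calls occur together in 5 of the 9 lists. The point at the far right is Neurl1b, which had 1 count in all control libraries together.

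Long noncoding and circular RNAs at the member genes gave few reads. Of 13 lncRNA transcripts that overlap a member, 2 passed the filter, and neither was called, beside 4.93% of 6779 lncRNA transcripts. AK164362, on the strand of Rbpj (mm10 chr5:53638632-53642067) and overlapping its exons, had 299, 211 and 250 counts in H/R, against 188, 158 and 103 in control, and as CPM of the lncRNA table the groups overlapped (249, 190 and 216 in H/R, against 299, 257 and 205 in control, log2 -0.22, SE 0.22, edgeR adjusted p = 0.701). Rbpj was called lower and this transcript was not called, and the difference between them was not tested. The Notch1 transcript ENSMUST00000131393 had 22, 17 and 7 counts in H/R, against 28, 4 and 2 in control (log2 -0.49, SE 0.85, edgeR adjusted p = 0.840), and without control 1 its change was 1.32. Transcripts antisense to Notch1, Notch3 and Dll1 had at most 18 counts in any library. The strand setting of the counting is not stated, so reads of a member and of a transcript that overlaps it cannot be told apart.

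The circular RNAs of the members were 4, and none passed the filter. The one with the most reads was the circle of Maml2 exon 2 (mm10 chr9:13619990-13621675, plus strand, 1686 bases, exon numbering of ENSMUST00000159294), with 6, 3 and 15 junction reads in H/R, against 4, 12 and 1 in control, among 2938 to 3335 junction reads per library in H/R and 1386 to 1846 in control. Its reads varied as much within a group as between groups. The sequence across its back-splice junction is shown because only such reads tell the circle from the linear Maml2 mRNA, with the last 15 bases of the exon in lower case and the first 15 in capitals.
Maml2 exon 2 junction: caacagcacagacagCTCCAGGGCTCTTTG
A circle of Notch2 exons 3 to 5 had 2, 3 and 0 reads in H/R, against 1, 0 and 0 in control, and 2 Rbpj circles had 2 reads each, all in H/R.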

How the data were processed

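RNA of 3 H/R and 3 control samples was analysed. The deposited gene and lncRNA tables hold raw read counts, and the circRNA table holds counts of junction reads. As the methods and submitters' processing notes state, the authors' gene counts came from HTSeq 0.9.1 on 150 bp paired reads trimmed by cutadapt 1.9.3 and aligned by HISAT2 2.0.4 (mm10). Their circRNAs came from DCC after STAR 2.5.1b, and they compared groups in edgeR 3.16.5. The lncRNA counter, strand setting and annotation release are not given in the sources used here. The authors' fold changes, p-values and 18 further per-sample columns were left out.

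Counts were analysed in R 4.3.3 with edgeR 4.0.16 (filterByExpr, TMM, quasi-likelihood test, Benjamini-Hochberg adjustment, no block). DESeq2 1.42.0 was an alternative. The test was tested on simulated data. Coordinates and exon lengths came from GENCODE vM21, where 14495 of 14665 gene IDs were found. Replicates differed by more than sampling noise (chi-square per degree of freedom 9.00 to 29.3). Counts cover amplified reads, not molecules.

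The members and lists were chosen with earlier results of these data known. All members were named, and in each list and direction up to 3 further genes with the smallest adjusted p. One result under this rule is not reported here. Alternatives were RLE or no scaling factors, DESeq2, edgeR's exact test, no filter, a filter of 1 CPM in 3 libraries, a replicate block, each library left out, thinned H/R libraries and the study's thresholds. Leaving out libraries for the receptor shares was chosen after seeing the data.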

Additional observations from a re-analysis of the deposited data

How the results depend on the processing

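Under the study's thresholds the calls were 646 genes higher and 596 lower, 0 members higher and 0 lower, and 4 other pathway genes higher and 4 lower. Without scaling factors they were 3704 genes higher and 1272 lower, 1 member lower, and 30 other pathway genes higher and 3 lower, the median change of all genes was 0.22, and the direction reversed for Maml2 (0.061) and Nedd4 (0.0098). RLE factors and DESeq2 each left 1 member higher. Leaving out each library gave 1571 to 2261 genes higher and 1622 to 2313 lower, 1 to 2 members higher and 2 to 3 lower, and 13 to 20 other pathway genes higher and 5 to 9 lower, and the lncRNA ENSMUST00000131393 ran from -0.93 to 1.32. Thinning the H/R libraries to 8210400 counts, the control median, gave 2 members higher and 2 lower. Over the 14 alternative settings of the fit, 112 of 126 member values kept their direction and side of the threshold. 8 lost their call (7 of Notch3, 1 of Jag1), 5 gained one (all Notch2) and 1 reversed (Maml2). Whether replicate numbers pair the samples is not stated. Deviations of same-numbered libraries from their group means correlated at 0.040, -0.0039 and 0.016. With 3 libraries per group these values cannot decide it. The replicate block gave 2039 genes higher and 1998 lower, 2 members each way and 17 other pathway genes higher and 8 lower, ended the calls of Eogt (adjusted p = 0.0652) and Nedd4 (0.0719), and turned ENSMUST00000131393 to 0.038. Depth limits Hes1, Dll1 and Jag2, whose counts were at most 77, 52 and 18 in any library.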

Other observations

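The gene table's own KEGG annotation of the Notch signaling pathway, which differs in part from the lists above, held 46 genes. Of these 40 were tested, 11 were higher in H/R, 5 were lower and 24 did not pass, with a median log2 change of 0.12 against 0.010 for all genes. Without the members, 9 of 31 were higher and 3 were lower, beside 18.8% and 19.0% of all genes.

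Several pathway genes had a row but stayed under the filter on low counts. The fourth receptor Notch4 had 14, 7 and 20 counts in H/R, against 0, 0 and 4 in control, and the ligand Dll4 had 1, 0 and 0 in H/R, against 0, 1 and 0 in control. The target gene Hey2 had 0, 1 and 0 counts in H/R, against 0, 1 and 4 in control. In all 9 such genes the highest level in any library was 1.35 CPM.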
